A study of Mus musculus with 11 samples.

Results

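Adipokines are proteins that fat tissue secretes. The transcripts of 7 of them were followed here in the mouse mammary gland: Adipoq (adiponectin), Retn (resistin), Lep (leptin), Rbp4 (retinol-binding protein 4), Rarres2 (chemerin), Nampt (visfatin) and Apln (apelin). They were chosen by name from a list of factors known to be secreted by adipocytes. All 7 were among the 22196 genes with estimated reads summed from the transcript tables, and all 7 were among the 12716 genes that passed the filter on low counts.

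The libraries hold total RNA of whole inguinal mammary glands from mice on a normal chow diet. The 6 Knockout samples are labelled Tsc1-fl/fl; Adipoq-Cre-Tg/+ and the 5 Wild-Type samples Tsc1-fl/fl; Adipoq-Cre-+/+, so both groups carried Tsc1 alleles flanked by recombinase sites and only the Knockout group carried the Cre transgene. Cre stood under adiponectin regulatory sequence, which is active in adipocytes, and Tsc1 encodes a subunit of the complex that restrains the growth kinase complex mTORC1. All samples are labelled PND16.5, a postnatal day, and the protocol has glands collected 16 days post-delivery. Lactation is not named, but milk protein and luminal markers summed to at least 414800 CPM in every library, so the glands were making milk transcripts. The comparison asks how the gland's transcripts differ when adipocytes carry the deletion. Nothing in the labels ties a sample to a litter, a collection day or a sequencing run.

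Between 25817975 and 37894237 reads were estimated per library. Tsc1 itself had a Knockout mean of 10.1 CPM ± 1.33 (SD, n = 6) and a Wild-Type mean of 10.7 CPM ± 1.11 (SD, n = 5), where CPM is the read count relative to library size after TMM scaling. That difference was smaller than the spread (log2 fold change -0.09 ± 0.11 SE; edgeR adjusted p = 0.772), and the sum over the gene does not separate the exons that Cre removes. Adipocyte transcripts were present in every library. The defining markers Plin1, Cidec, Adrb3, Trarg1 and Acvr1c all had reads in every library. Milk protein and luminal markers summed to 414800 to 605200 CPM in the Knockout group and to 523200 to 748400 CPM in the Wild-Type group, against 699.5 to 977 CPM for the adipocyte markers. Knockout 1 stood apart in its skeletal muscle markers, which summed to 2071 CPM against 0.817 to 308 CPM in the other libraries. In such whole-tissue libraries, fewer adipocytes and less RNA per adipocyte cannot be told apart. No sentence in the labels says that each sample came from a separate animal, so p-values measure the spread between these samples.

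Adiponectin is made almost only by adipocytes, folds into multimers in the endoplasmic reticulum and signals through the receptors AdipoR1 and AdipoR2. Leptin is secreted in proportion to the lipid that fat cells store and tells the brain about energy reserves; in the lactating gland the fat cells shrink and give way to milk-secreting epithelium. Resistin is an adipocyte hormone in mice, whereas Rbp4, chemerin, visfatin and apelin are also made by other cells.

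Adipoq, Retn and Lep are the hormones that mouse fat cells make most selectively, so the 250 bases before each of their starts are shown (RefSeq, GRCm38.p6, forward strand). Capitals mark matches to the motifs searched on both strands. Those motifs were the TATA box TATAAA, the CCAAT box CCAAT, the C/EBP half-site pair TTGCNNAA, the nuclear receptor half-site AGGTCA, the E-box CACGTG and the hypoxia response core ACGTG, which lies within CACGTG. The windows lie at chr16:23146286-23146535 for Adipoq, chr8:3655520-3655769 for Retn and chr6:29059971-29060220 for Lep.
Adipoq: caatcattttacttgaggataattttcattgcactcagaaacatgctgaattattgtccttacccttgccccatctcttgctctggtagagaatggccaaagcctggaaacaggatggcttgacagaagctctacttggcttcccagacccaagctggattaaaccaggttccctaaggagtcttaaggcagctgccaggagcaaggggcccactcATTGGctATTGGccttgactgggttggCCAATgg
Retn: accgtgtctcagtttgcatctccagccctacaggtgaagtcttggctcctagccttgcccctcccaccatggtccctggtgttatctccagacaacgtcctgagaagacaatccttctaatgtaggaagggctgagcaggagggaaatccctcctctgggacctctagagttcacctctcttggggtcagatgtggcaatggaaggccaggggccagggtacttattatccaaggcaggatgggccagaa
Lep: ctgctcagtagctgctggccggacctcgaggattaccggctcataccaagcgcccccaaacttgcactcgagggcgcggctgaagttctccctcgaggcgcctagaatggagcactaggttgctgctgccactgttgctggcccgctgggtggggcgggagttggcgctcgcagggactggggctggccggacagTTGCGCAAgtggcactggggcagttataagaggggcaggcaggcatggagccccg

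The Adipoq window held 3 CCAAT boxes, all within the last 34 bases, 2 of them as ATTGG on the strand shown. The Lep window held 1 C/EBP match, 55 to 48 bases before the start. The Retn window held none of the 6 motifs. Of 32851 mouse promoter windows of this length, 33.9% held a CCAAT box and 9.56% a C/EBP match, so neither is rare. Promoter entries were found for 6 of the 7 adipokines, all but Rarres2. The Rbp4 window held 1 match each to the TATA box, the CCAAT box, the C/EBP pair and the hypoxia core. The Nampt window held 1 match each to the nuclear receptor half-site and the hypoxia core, and the Apln window none. These matches describe letters only, and no binding was measured.

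Levels of different genes were compared as TPM, which divides reads by the effective transcript length deposited with the counts. Averaged over the 11 libraries, Retn had the highest TPM of the 7, at 61.6. Adipoq followed at 45.0 TPM and Nampt at 27.5 TPM. Rbp4 stood at 10.6, Rarres2 at 6.27, Apln at 3.11 and Lep at 1.54 TPM. Retn exceeded Adipoq in 10 of 11 libraries, Adipoq exceeded Nampt in 10, Nampt exceeded Rbp4 in 11 and Rbp4 exceeded Rarres2 in 10. The lower steps were less even, with Rarres2 above Apln in 9 of 11 libraries and Apln above Lep in 9. This order depends on the effective lengths. The listed sequences of Retn and Apln have 345 and 234 bases, against 744 for Adipoq-201 and 504 for Lep-201. In CPM, the Knockout and Wild-Type means were 73.6 and 82.0 for Nampt, 47.7 and 36.1 for Adipoq and 15.9 and 12.5 for Retn. Lep, at 0.650 and 1.17 CPM, stood above Apln, at 0.315 and 0.374 CPM. CPM takes no account of length, so neither order is settled. Apln and Lep rest on few reads, 1 to 23 for Apln and 4 to 58 for Lep, so their values carry the largest counting error.

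**Figure D1:**
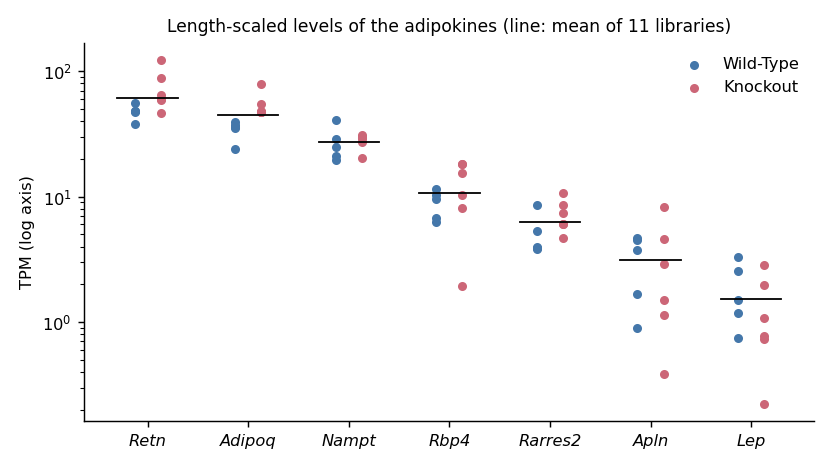
TPM (log axis) of the 7 adipokine genes, ordered by their mean over the 11 libraries (black line); each point is 1 library. Retn and Adipoq sit highest, with means of 61.6 and 45.0 TPM, and Apln and Lep spread over the widest ranges, 0.387 to 8.21 TPM and 0.223 to 3.28 TPM.

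Across the genotypes, 0 of the 7 adipokines had an adjusted p under 0.05 in edgeR's quasi-likelihood test, in which 0.055% of all genes tested passed, 0.0472% higher and 0.00786% lower in Knockout. At an unadjusted p under 0.05 there were 2, Adipoq and Retn, both higher in Knockout, against 12.4% of all genes, and 6.31% in that direction. DESeq2 and limma-voom also placed 0 of the 7 past the threshold, against 0.957% and 0.0472% of the genes each tested. By sign, 4 were higher in Knockout (Adipoq, Retn, Rarres2 and Rbp4) and 3 lower (Lep, Nampt and Apln), and 48.3% of all genes were higher. With library totals alone, a scaling that moved the median of all genes to 0.18, 5 were higher and 2 lower. The median log2 fold change of the 7 was 0.13, that of all genes -0.008. None of the 7 had groups that did not overlap in CPM, a pattern found in 1.32% of all genes.

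Adipoq (ENSMUSG00000022878, chromosome 16, 23146536 to 23158028, GRCm38) ranged in Knockout libraries from 42.0 to 58.3 CPM with a median of 46.7. The Wild-Type libraries stood at 39.5, 43.3, 29.5, 31.4 and 36.7 CPM in replicate order. Wild-Type 2 alone reached into the Knockout range, above Knockout 6. Group means were 47.7 ± 5.82 (SD, n = 6) against 36.1 ± 5.66 CPM (SD, n = 5), a 1.32-fold difference. The log2 fold change was 0.41 ± 0.11 (SE), with a 95% interval from 0.15 to 0.66, an unadjusted p of 0.00342 and an edgeR adjusted p of 0.263. DESeq2 came closest to the threshold, with an adjusted p of 0.0517.

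On the deposited TPM scale, which has no scaling for the share that milk transcripts take, Adipoq did not overlap between the genotypes. Knockout libraries stood between 47.1 and 78.8 TPM and Wild-Type libraries between 24.1 and 39.3 TPM, and 1.62% of all genes tested were separated in this direction in TPM. Reads fell on both annotated coding transcripts in similar proportion. The shorter Adipoq-202 took between 25.2% and 30.8% of the gene's reads in Knockout and between 23.7% and 29.3% in Wild-Type libraries.

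**Figure D2:**
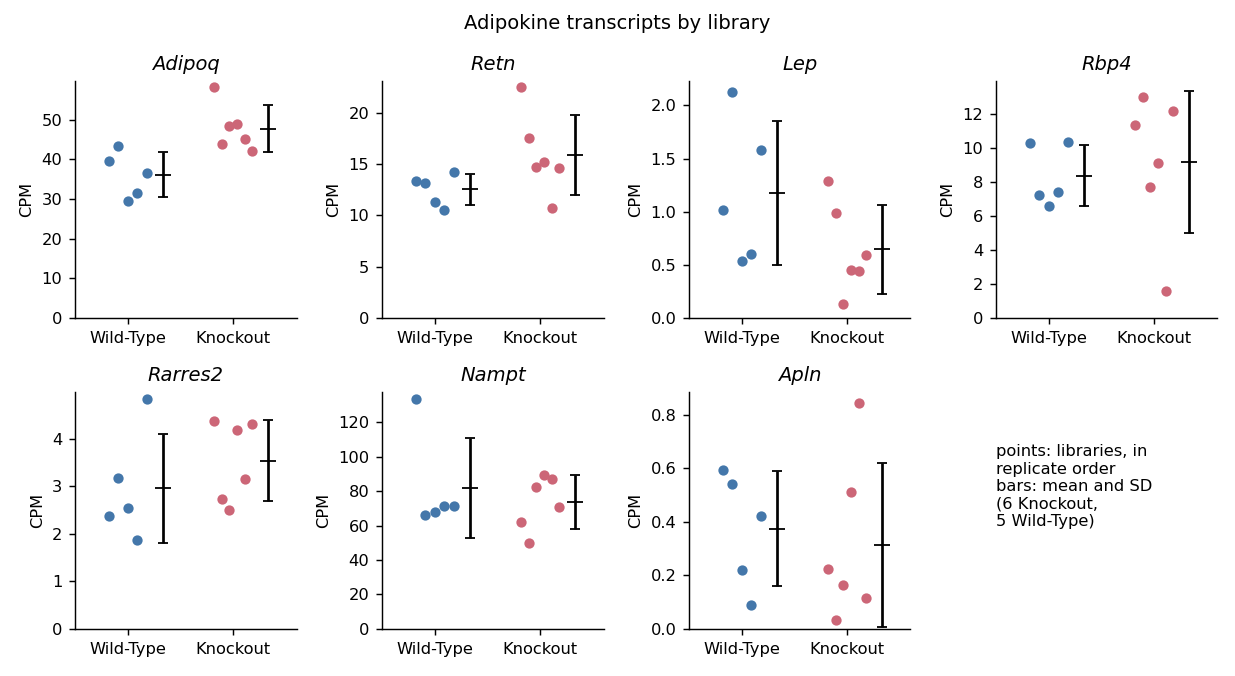
CPM of each adipokine gene in each library (points, in replicate order) with group mean and SD (bars; 6 Knockout, 5 Wild-Type). Adipoq separates the genotypes best, with only Wild-Type 2 (43.3 CPM) above the lowest Knockout library (42.0 CPM); the high Nampt point is Wild-Type 1 at 134 CPM and the low Rbp4 point is Knockout 5 at 1.62 CPM.

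Because Cre was driven by adiponectin sequence, the 4 nearest protein-coding genes on either side of Adipoq were read as well. Eif4a2 (ENSMUSG00000022884), an RNA helicase of translation initiation, ends 32.4 kb before the Adipoq start. It ranged from 112 to 142 CPM with a median of 126 in Knockout libraries and stood at 86.6, 95.02, 111, 91.7 and 98.7 CPM in Wild-Type libraries. All Knockout libraries lay above all Wild-Type libraries, as they did for 0.786% of all genes tested. The fitted log2 difference was 0.38 ± 0.08 (SE; edgeR unadjusted p = 0.000392, adjusted p = 0.137), and DESeq2 called it with an adjusted p of 0.00218. Over the alternatives run for it, its adjusted p ran from 0.00218 to 0.588. Other genes hold 35.8% of the 31-base words of its coding sequence, so part of its reads may be assigned with less certainty.

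Rfc4 (ENSMUSG00000022881), a subunit of the clamp loader of DNA replication, lies between Eif4a2 and Adipoq. It had a Knockout mean of 2.65 CPM ± 0.335 (SD, n = 6) and a Wild-Type mean of 1.65 CPM ± 0.556 (SD, n = 5), and only Wild-Type 2, at 2.42 CPM, reached the Knockout range. Its difference on the log2 scale was 0.68 ± 0.20 (SE), with an edgeR adjusted p of 0.270. Rfc4 and Eif4a2 overlap by 194 bases on opposite strands. Beyond Adipoq, St6gal1, a sialyltransferase gene, had a log2 fold change of -0.25 ± 0.18 (SE; adjusted p = 0.593) and Rtp4, a receptor chaperone gene, 0.14 ± 0.26 (SE; adjusted p = 0.863). Without 1 library St6gal1 ran from -0.406 to -0.155. Kng2 had 10 reads over the Knockout and 1 over the Wild-Type libraries, Kng1 and Rtp1 had 1 read each in all, and Masp1 was below the filter. The 2 tested genes upstream of Adipoq had positive fold changes like its own and the nearest tested gene downstream did not; differences between these fold changes were not tested. How the transgene was built is not given in the labels, and transcripts from any sequence it carries and from the chromosomal genes cannot be told apart.

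**Figure D3:**
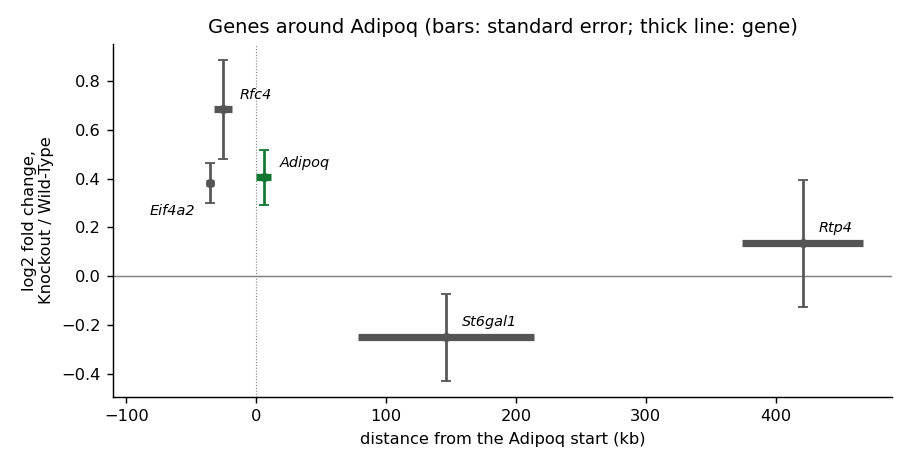
Log2 fold change (Knockout over Wild-Type; bars, SE) of the tested genes around Adipoq, against distance from its start in kb, negative upstream; the thick line spans each gene. Eif4a2 (0.38), Rfc4 (0.68) and Adipoq (0.41) lie above 0 and St6gal1 (-0.25) below.

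Retn (ENSMUSG00000012705, chromosome 8, 3655770 to 3660110) ranged in Knockout libraries from 10.8 to 22.5 CPM with a median of 14.9. Wild-Type libraries stood at 13.4, 13.1, 11.3, 10.6 and 14.2 CPM. The groups overlapped, since Knockout 5 fell among the Wild-Type libraries and 5 of the 6 Knockout libraries lay above all of them. Means were 15.9 ± 3.90 (SD, n = 6) against 12.5 ± 1.504 CPM (SD, n = 5). The log2 fold change was 0.35 ± 0.16 (SE; unadjusted p = 0.0468, edgeR adjusted p = 0.396). Without Knockout 1, the library with the highest Retn, it was 0.23 ± 0.13 (SE; adjusted p = 0.585). Its paralog Retnla, known from macrophages and fat, had means of 3.46 ± 1.07 (SD, n = 6) against 4.35 ± 0.674 CPM (SD, n = 5). The log2 difference was -0.33 ± 0.21 (SE), with an edgeR adjusted p of 0.553. Retnlb had 0 reads in all libraries and Retnlg at most 2.

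Lep (ENSMUSG00000059201, chromosome 6, 29060220 to 29073877) had 58, 29, 4, 15, 12 and 21 reads in Knockout 1 to 6 and 29, 51, 17, 20 and 45 reads in Wild-Type 1 to 5. In CPM the Knockout libraries ranged from 0.132 to 1.29 with a median of 0.524, and the Wild-Type libraries stood at 1.02, 2.13, 0.534, 0.607 and 1.58. The groups overlapped, with Knockout 3 lowest and Wild-Type 2 highest. Means were 0.650 ± 0.419 (SD, n = 6) against 1.17 ± 0.677 CPM (SD, n = 5). Its log2 difference of -0.81 ± 0.50 (SE; adjusted p = 0.526 in edgeR) had a 95% interval from -1.94 to 0.31, wide enough to hold both a strong decrease and a small increase. Wild-Type 2 and 5, which had the highest Lep, also had the most B cell and T cell transcripts, with B cell markers summing to 52.7 and 67.9 CPM against 1.86 to 15.1 CPM in the other Wild-Type and 0.808 to 13.3 CPM in the Knockout libraries. Without these 2 libraries, left out together after their values were seen, the log2 difference of Lep was -0.12 ± 0.54 (SE; edgeR adjusted p = 0.969). The part of these cells in the Lep difference was not tested.

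The leptin to adiponectin ratio sets both adipocyte hormones against each other within a library, so that scaling between libraries drops out. Per 100 TPM of Adipoq, Lep stood at 3.65, 3.66, 0.461, 1.54, 1.65 and 2.28 TPM in Knockout 1 to 6 and at 4.25, 8.35, 3.07, 3.17 and 7.08 TPM in Wild-Type 1 to 5. Of the 6 Knockout libraries, 4 lay below all Wild-Type libraries, while Knockout 1 and 2 lay among them. Means were 2.21 ± 1.26 (SD, n = 6) and 5.18 ± 2.40 (SD, n = 5). The log2 ratio was lower in Knockout, with a difference of -1.39 or 2.62-fold (exact permutation test over all splits into 6 and 5, two-sided, p = 0.0281). This p is unadjusted, and the ratio joins the adipokines with the most positive and the most negative fold change. Of all genes tested, 12.4% had an unadjusted p under 0.05 in edgeR. Leaving out 1 library at a time kept the sign in all 11 cases, with differences from -1.593 to -0.996 and exact p from 0.0238 to 0.0810, and in 7 of them p was above 0.05. Of these, the difference was -0.996 without Knockout 3, -1.188 without Wild-Type 2 and -1.248 without Wild-Type 5, whereas without Knockout 4, 5 or 6 or Wild-Type 1 it stayed between -1.457 and -1.344. Wild-Type 2 and 5, the libraries rich in B cell markers, held the highest ratios, and without both the difference was -0.93 (exact permutation p = 0.226). Lep reads set most of the counting error of this ratio.

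**Figure D4:**
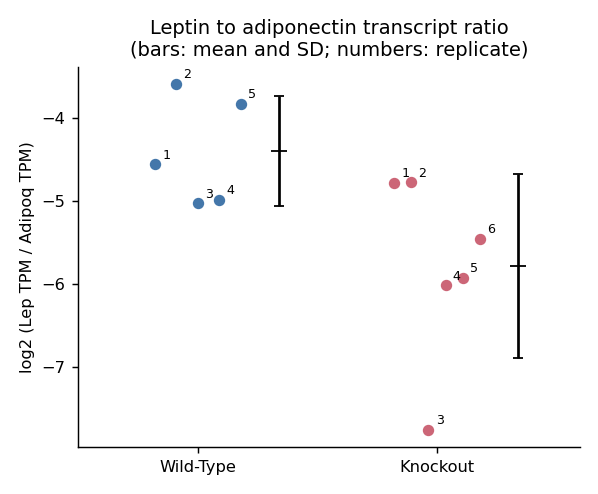
Log2 of the Lep to Adipoq TPM ratio in each library (points, numbered by replicate) with group mean and SD (bars; 5 Wild-Type, 6 Knockout). Knockout 3, with 4 Lep reads, is lowest, and Knockout 1 and 2 lie within the Wild-Type range.

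Rbp4 (ENSMUSG00000024990, chromosome 19, 38116629 to 38125281), the retinol carrier of blood, ranged in Knockout libraries from 1.62 to 12.96 CPM with a median of 10.2. Wild-Type libraries stood at 10.3, 7.23, 6.60, 7.41 and 10.3 CPM. Knockout 5 was lowest of all, with 44 reads against 173 to 510 in the other libraries, and the remaining values overlapped. Means were 9.15 ± 4.18 (SD, n = 6) against 8.36 ± 1.79 CPM (SD, n = 5). On the log2 scale Rbp4 differed by 0.13 ± 0.39 (SE), with an edgeR adjusted p of 0.920. Without Knockout 5 it was 0.36 ± 0.17 (SE; adjusted p = 0.420), and over all 11 fits that left out 1 library it ran from 0.013, without Knockout 2, to 0.355. In Knockout 5, 95.2% of the gene's reads were given to transcript Rbp4-202 and 4.77% to Rbp4-201, whereas Rbp4-202 took from 47.6% to 72.9% in the other 10 libraries.

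Rarres2 (ENSMUSG00000009281, chromosome 6, 48569696 to 48572789) encodes chemerin, an attractant of immune cells that is cleaved to its active form. Knockout libraries ranged from 2.51 to 4.38 CPM with a median of 3.67, and Wild-Type libraries stood at 2.38, 3.17, 2.54, 1.88 and 4.84 CPM. Wild-Type 5 was the highest of all 11. Its difference on the log2 scale was 0.26 ± 0.24 (SE), with an edgeR adjusted p of 0.685. Without Wild-Type 5 it was 0.51 ± 0.21 (SE; adjusted p = 0.400) and without Wild-Type 4, the lowest library, 0.14 ± 0.23 (SE; adjusted p = 0.815). Its reads were divided between 2 transcripts whose coding sequences differ by 3 bases, shown here because they separate the 2 forms; capitals mark the extra bases, the first at coding position 382 of Rarres2-201.
Rarres2-201: caagggcctcagCAGgatcctcaggag
Rarres2-204: caagggcctcaggatcctcaggag

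The form without the extra bases, Rarres2-204, took most of the reads in every library, between 62.8% and 77.0% in Knockout and between 64.3% and 82.5% in Wild-Type libraries. Rarres2 overlaps Lrrc61 by 1027 bases on the opposite strand.

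Nampt (ENSMUSG00000020572, chromosome 12, 32819545 to 32853349) encodes the rate-limiting enzyme of NAD salvage, which is also found outside cells as visfatin. Knockout libraries ranged from 50.1 to 89.5 CPM with a median of 76.7, and Wild-Type libraries stood at 134, 66.2, 67.7, 71.2 and 71.2 CPM. Wild-Type 1 was highest of all 11 libraries and the other 4 Wild-Type libraries fell within the Knockout range. Its difference on the log2 scale was -0.16 ± 0.21 (SE), with an edgeR adjusted p of 0.799, and without Wild-Type 1 it was 0.09 ± 0.15 (SE; adjusted p = 0.836). Gdap10 overlaps Nampt by 5033 bases on the same strand. The gene shared no 31-base word with other coding sequences, nor did any of the other 6 adipokines.

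Apln (ENSMUSG00000037010, chromosome X, 48025146 to 48034853), the peptide ligand of the apelin receptor, had 10, 1, 5, 17, 23 and 4 reads in Knockout 1 to 6 and 17, 13, 7, 3 and 12 reads in Wild-Type 1 to 5. Knockout libraries ranged from 0.0341 to 0.845 CPM with a median of 0.194, and Wild-Type libraries stood at 0.595, 0.543, 0.220, 0.0911 and 0.421 CPM. Knockout 2 and Knockout 5 were the lowest and highest of all 11. Its log2 difference of -0.25 ± 0.65 (SE; adjusted p = 0.907 in edgeR) had a 95% interval from -1.72 to 1.22. Over the 9 fits that left out 1 library and could test it, the difference ran from -0.504 without Wild-Type 4 to -0.006 without Wild-Type 1, with -0.018 without Knockout 2. The apelin receptor's other ligand gene, Apela, had 0 reads in all libraries.

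Adipocyte markers had fold changes mostly of the same sign as Adipoq and Retn. Of 11 tested markers, 10 were higher in Knockout, 0 passed the threshold and 4 had an unadjusted p under 0.05 (edgeR), with a median log2 fold change of 0.23. Those 4 were all higher, and over all genes tested 48.3% were higher, 12.4% had such a p and 6.31% had it with a higher level in Knockout; the counts of the other lists stand against the same shares. The 12 markers summed to 825 to 977 CPM in the Knockout group against 699.5 to 949.8 CPM, and none was at 0 in all libraries. Among the defining markers, the log2 fold changes were 0.46 ± 0.14 (SE) for the lipid droplet gene Cidec, 0.46 ± 0.16 for the adrenergic receptor Adrb3, 0.22 ± 0.18 for the lipid droplet coat gene Plin1 and 0.23 ± 0.31 for Trarg1 (edgeR adjusted p = 0.274, 0.313, 0.633 and 0.793). Without 1 library Cidec ran from 0.381 to 0.52, Adrb3 from 0.364 to 0.558, Plin1 from 0.12 to 0.336 and Trarg1 from 0.084 to 0.375. Acvr1c was below the filter, with means of 0.412 and 0.178 CPM in Knockout and Wild-Type libraries.

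With the mean log2 level of these markers in each library as a term of the fit, the genotype difference of Retn was -0.01 ± 0.18 (SE; adjusted p = 0.999) and that of Adipoq 0.31 ± 0.16 (SE; adjusted p = 0.826). The difference of Lep was then -1.41 ± 0.75 (SE; adjusted p = 0.846). Retn had a slope of 1.05 ± 0.38 (SE) on the marker level, the largest relative to its SE among the adipokines, and 0 of all genes had a slope past the threshold (Retn adjusted p = 0.688). With the milk protein and luminal epithelium level in its place, Retn was at 0.08 ± 0.15 and Adipoq at 0.24 ± 0.12, and with the fibroblast level at 0.18 ± 0.16 and 0.42 ± 0.13 (SE; edgeR adjusted p = 0.916, 0.540, 0.728 and 0.299). With the B cell level Lep was at -0.13 ± 0.49, Adipoq at 0.52 ± 0.13 and Retn at 0.53 ± 0.16 (SE; edgeR adjusted p = 0.947, 0.154 and 0.280). What part of any adipokine's difference goes with the number of adipocytes was not tested.

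**Figure D5:**
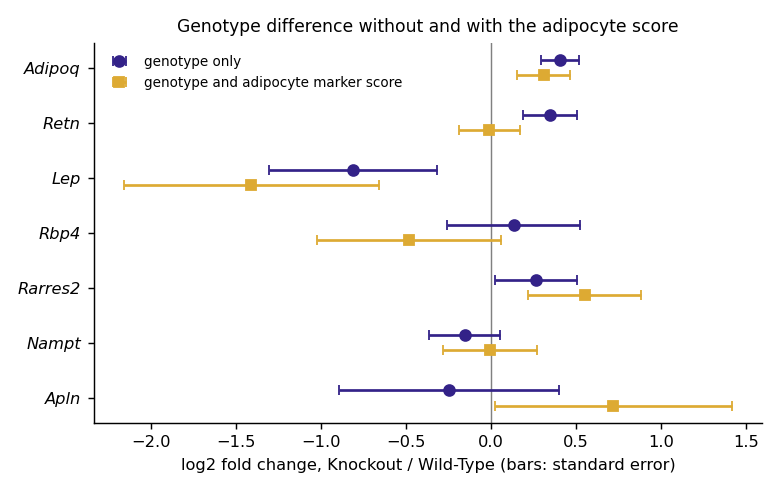
Log2 fold change (Knockout over Wild-Type) of each adipokine with its SE, from genotype alone (circles) and with the adipocyte marker level of each library as a further term (squares). Retn lies at 0.35 and -0.01, Adipoq at 0.41 and 0.31, and Lep below 0 in both fits.

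Other cell types that could supply these transcripts were followed by their markers. Macrophage markers, relevant for Nampt and Retnla, were higher in Knockout for 3 of 6 genes and summed to 76.0 to 147 CPM in the Knockout group against 87.1 to 95.1 CPM. Lep had a slope of 3.18 ± 0.78 (SE) on the macrophage marker level and Retn one of 0.92 ± 0.24 (edgeR adjusted p = 0.251 and 0.272). Endothelial markers, relevant for Apln, were higher for 4 of 6 genes and summed to 69.8 to 116 CPM in the Knockout group against 74.9 to 117 CPM. Of the macrophage and endothelial markers, 0 had an unadjusted p under 0.05 (edgeR). Fibroblast markers were higher for all 6 genes (median log2 fold change 0.34), with summed levels of 139.5 to 322 CPM in the Knockout group against 125 to 229.7 CPM. Of these, 0 passed the threshold and 2, the matrix genes Lum at 0.61 and Dcn at 0.37, had an unadjusted p under 0.05 (edgeR). Myoepithelial markers were higher for all 5 genes (median log2 fold change 0.21) and summed to 453.7 to 631.5 CPM in the Knockout group against 363 to 656 CPM. Of 12 milk protein and luminal markers (median -0.24), all 8 milk protein genes had negative fold changes, from -0.33 for Glycam1 to -0.14 for Lalba, as did the alveolar regulator Elf5 at -0.25. The luminal keratins Krt8 and Krt18 and the epithelial adhesion gene Epcam had positive ones, at 0.48, 0.31 and 0.25. With library totals 8 of these 12 were lower. Skeletal muscle markers were higher for all 6 genes (median 2.28) and summed to 1.29 to 2071 CPM in the Knockout group against 0.817 to 196.5 CPM. Brown adipocyte markers were lower for 2 of 3 tested genes (median -0.22). They summed to 1435 to 2055 CPM in the Knockout group against 1805 to 2665 CPM, above the sums of the adipocyte markers. Ucp1, the thermogenic gene of this list, had means of only 0.238 and 0.501 CPM in Knockout and Wild-Type libraries. The sum is therefore not read as a level of brown adipocytes. In each of these 4 lists 0 genes passed the threshold. An unadjusted p under 0.05 (edgeR) was found for the myoepithelial keratin Krt5, higher at 0.50, for Krt8 and for no skeletal muscle gene. In the brown adipocyte list it was found for Cox8b, higher at 1.03, and for Cidea, lower at -0.40. With library totals all 6 macrophage and all 6 endothelial markers were higher. None of these lists had a gene at 0 in all libraries. B cell markers were lower in Knockout for all 4 tested genes of 6, each with an unadjusted p under 0.05, and T cell markers for all 5 tested genes, 1 of them with such a p; 0 passed the threshold (edgeR). T cell markers summed to 1.09 to 6.42 CPM in the Knockout group against 0.876 to 21.8 CPM. Neutrophil markers summed to 0.932 to 6.84 CPM against 0.974 to 2.92 CPM. The 1 tested gene, S100a8, was higher at 1.09 ± 0.44 (SE; edgeR unadjusted p = 0.0305, adjusted p = 0.360). With the neutrophil level as a term of the fit, Retn was at 0.17 ± 0.16 and Lep at -1.46 ± 0.48 (SE; edgeR adjusted p = 0.761 and 0.312). Of 11 marker levels entered in turn, none gave any of the 7 adipokines a slope past the threshold. Over all 12716 genes the slope passed for 0 genes with 6 of these levels, for 2.09% with the B cell, 1.48% with the T cell, 0.417% with the skeletal muscle, 0.0708% with the fibroblast and 0.0157% with the neutrophil level, so none among 7 genes is no result about the adipokines. The part of these cell types in the differences was not tested.

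Receptors of these factors were present at unequal levels. Of 12 genes, 11 were tested, 9 were higher and 2 lower in Knockout, 0 passed the threshold and 2 had an unadjusted p under 0.05; the median log2 fold change was 0.13. Adipor1 and Adipor2, the adiponectin receptors, averaged 31.5 and 28.8 TPM over the libraries. In CPM they were further apart, with Knockout and Wild-Type means of 74.7 and 74.4 for Adipor1 and 21.6 and 18.6 for Adipor2. The TPM of Adipor2 ran from 14.6 to 49.8 over the libraries. Lepr, the leptin receptor, averaged 0.0324 TPM on 0 to 15 reads and was below the filter. Cmklr1, the signalling receptor of chemerin, had a Knockout mean of 3.70 CPM ± 0.566 (SD, n = 6) and a Wild-Type mean of 2.64 CPM ± 0.523 (SD, n = 5). On the log2 scale the difference was 0.49 ± 0.15 (SE), with an edgeR adjusted p of 0.274. For Adipor2 the value was 0.22 ± 0.10 and for Tlr4, a proposed receptor of resistin, 0.18 ± 0.10 (SE; adjusted p = 0.396 and 0.469).

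Genes of the machinery that folds and releases adiponectin were read next. Of 6 genes tested, 1 was higher and 5 were lower, 0 passed the threshold and 1 had an unadjusted p under 0.05, with a median log2 fold change of -0.03. With library totals all 6 were higher. The gene with that p was Cavin1, a coat protein of caveolae, at 0.27 ± 0.10 (SE; edgeR adjusted p = 0.313). Erp44, which retains adiponectin in the endoplasmic reticulum through thiol bonds, was at -0.05 ± 0.07 and Gstk1, also named for its part in adiponectin assembly, at -0.13 ± 0.17 (adjusted p = 0.814 and 0.796). Of 9 relatives of adiponectin in the C1q/TNF family, 6 were tested, with 4 higher, 2 lower, 0 past the threshold and 0 with an unadjusted p under 0.05 (median log2 fold change 0.01), and all 6 were higher with library totals. The 3 with the smallest p-values were C1qtnf1 at 0.34 ± 0.18, C1qtnf12 at 0.14 ± 0.10 and C1qtnf9 at -0.10 ± 0.15 (SE; edgeR adjusted p = 0.483, 0.603 and 0.831). With a correction for transcript length C1qtnf1 was at -0.37.

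Among 14 other factors that adipocytes secrete, 8 were tested, with 4 higher, 4 lower, 0 past the threshold and 1 with an unadjusted p under 0.05 (median log2 fold change 0.08), and with library totals 5 were higher and 3 lower. That 1 was Cfd, the complement protease adipsin, at 0.78 ± 0.18 on the log2 scale (SE), with an edgeR adjusted p of 0.218; DESeq2 placed it past the threshold (adjusted p = 0.00520). The iron-binder lipocalin 2, Lcn2, was at 0.31 ± 0.20 (SE; adjusted p = 0.566). The inflammatory cytokine genes Il6 and Tnf were below the filter, with at most 1 and 17 reads per library.

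Genes around Nampt and Rbp4 were read in the same way. Of 13 genes of NAD metabolism 11 were tested, with 5 higher, 6 lower, 0 past the threshold and 1 with an unadjusted p under 0.05 (median log2 fold change -0.02), and with library totals 9 were higher and 2 lower. These included Naprt, which feeds NAD synthesis from nicotinic acid, at 0.40 ± 0.17, Nmnat1 at -0.28 ± 0.15 and Nadsyn1 at -0.15 ± 0.09 (log2, SE; edgeR adjusted p = 0.380, 0.457 and 0.527). Of 15 genes that handle retinoids, the cargo of Rbp4, 11 were tested, with 8 higher, 3 lower, 0 past the threshold and 3 with an unadjusted p under 0.05 (median log2 fold change 0.19), and with library totals 10 were higher and 1 lower. Crabp1, a cellular retinoic acid-binding protein, had a Knockout mean of 0.950 CPM ± 0.441 (SD, n = 6) and a Wild-Type mean of 0.231 CPM ± 0.182 (SD, n = 5) on 0 to 56 reads. The fitted log2 difference was 2.00 ± 0.54 (SE), with an edgeR adjusted p of 0.250, and DESeq2 placed it past the threshold (adjusted p = 0.0242). The retinaldehyde dehydrogenase Aldh1a1 was at 0.78 ± 0.35 and the retinaldehyde reductase Dhrs3 at -0.31 ± 0.13 (SE; edgeR adjusted p = 0.396 and 0.379).

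Of 10 transcription factors known to act on adipokine genes, all were tested, with 2 higher, 8 lower, 0 past the threshold and 1 with an unadjusted p under 0.05 (median log2 fold change -0.10). With library totals 6 were higher and 4 lower. Pparg, the master regulator of adipocytes and an activator of Adipoq, was at 0.12 ± 0.12 (log2, SE; edgeR adjusted p = 0.725). Esrra was at -0.45 ± 0.19, Klf15 at -0.43 ± 0.24 and Hif1a, the hypoxia factor, at 0.33 ± 0.17 (SE; adjusted p = 0.363, 0.490 and 0.468). Over the alternatives other than leaving out 1 library, Esrra ran from -0.571 to -0.019, Klf15 from -0.453 to -0.208 and Hif1a from 0.088 to 0.51. Without 1 library they ran from -0.574 to -0.359, from -0.561 to -0.245 and from 0.202 to 0.461.

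The adipokines did not vary as one group over the 11 libraries, which share the tissue and its milk content. Pearson correlations of log2 CPM are given as a description. Adipoq and Retn had r = 0.74, Retn and Rbp4 r = 0.62 and Nampt and Apln r = 0.64. Adipoq and Lep had r = -0.04, and Apln and Rbp4 r = -0.53. The genes most alike to Adipoq were Slc7a10, an amino acid transporter gene, with r = 0.96 (0.92 after genotype means were removed), Plppr3 with 0.93 and Cfd with 0.93. For Lep they were Mef2c with 0.96, the lysozyme gene Lyz2 with 0.93 and the nucleotide receptor gene P2ry6 with 0.91. For Apln they were the lipogenic regulator Srebf1 with 0.98, Abcf3 with 0.94 and Olah, a thioesterase gene of milk fat synthesis, with 0.94.

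Retn was most alike to Psma5 (r = 0.93), Fxyd1 (0.92) and Acyp2 (0.89), and Nampt to Rnf214 (0.91), Thpo (0.90) and Mia3 (0.89). Rbp4 was most alike to Hpgd (r = 0.90), Arpc3 (0.90) and Bex3 (0.89), and Rarres2 to the antibody segment Ighv1-82 (0.89), Med30 (0.86) and Ddx19b (0.85). All of these were picked as the highest among the correlations with every gene tested, so their size is no measure of likeness beyond these libraries.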

How the data were processed

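RNA of whole mammary glands from 6 Knockout and 5 Wild-Type samples was sequenced. Per the labels, total RNA was extracted with the PureLink kit and made into strand-marked libraries with NEBNext reagents. Per the submitters' processing notes, Salmon 1.3.0, DESeq2 1.28.1 and GRCm38.p6 were used; the index and options are not given in the sources used here. The authors deposited, per transcript, an estimated count, a TPM value and effective lengths, and a gene table that its name calls DESeq2-normalized counts, treated here as a signal. Of the listed transcript lengths, 94.3% lie within 3 bases above the coding length, so the index held mostly coding sequence.

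Estimated counts were summed per gene through GENCODE M21 identifiers and rounded; 752 of 58204 transcripts had no match and held at most 0.265% of a library's reads. The main test was the quasi-likelihood F test of edgeR 4.0.16, robust, with TMM scaling, filterByExpr and a genotype term, and p-values were adjusted by Benjamini-Hochberg over 12716 genes. SE is the log2 fold change over the root of F, and the common biological coefficient of variation was 24.1%. The Lep to Adipoq ratio was compared by an exact permutation test, whose smallest p is 0.00433. Same-genotype libraries differed by at least 20.8 chi-square per degree of freedom over 25 pairs, so none was counted as a repeat. Reads carry no molecular identifiers, so copies of 1 molecule may be counted more than once and counting errors are minimum errors.

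The members and the gene lists were chosen with earlier results of these data known. Named genes are the members, in each list those past the threshold or else the 3 with the smallest p, the 3 most correlated genes per member, the 4 nearest protein-coding genes on either side of Adipoq, 5 defining adipocyte markers and Tsc1; others (among them markers of other cell types, Lepr, Adipor1, Pparg, Il6, Tnf and relatives of resistin and apelin) are named to complete a pathway, after their values were seen. Of the genes this rule names, 1 is not reported here. Alternatives were other scalings, filters, tools, an adipocyte covariate, the deposited gene table and leaving out each library. Covariate fits with 10 further marker levels, slopes on all 11 levels and leaving out Wild-Type 2 and 5 together were added after seeing the data.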

Additional observations from a re-analysis of the deposited data

Results flagged for a closer look

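Values far from the rest of their group were looked for in 18 sets of library values, and 1 was found, where chance alone gives 0.9. Nampt stood at 133.6 CPM in Wild-Type 1, against 66.2 to 71.2 CPM in the other Wild-Type libraries, a gap large enough for Dixon's test at the 95% level. Without this library the log2 fold change of Nampt was 0.09 ± 0.15 (SE; edgeR adjusted p = 0.836), against -0.16 with it.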

How the results depend on the processing

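No adipokine passed the threshold under any alternative run, and Adipoq kept its sign in all of them, from 0.244 to 0.606 over the 25 alternatives other than leaving out 1 library and from 0.34 to 0.48 over those 11. Lep also kept its sign, from -1.465 to -0.123 and, without 1 library, from -1.14 to -0.50. Library totals with no scaling moved the median log2 fold change of all genes to 0.18; relative to that shift, Adipoq stood at 0.42, Retn at 0.38 and Nampt at -0.15. Under these totals the sign turned for Nampt (0.031), Tsc1 (0.10), C1qtnf9 (0.10), Gstk1 (0.074), Erp44 (0.14) and Nadsyn1 (0.038). With the adipocyte level as a covariate it turned for Retn (-0.011), Rbp4 (-0.48), Apln (0.72), Gstk1 (0.10), St6gal1 (0.085), Rtp4 (-0.16), Plin1 (-0.34) and Trarg1 (-0.11); the last 2 are in the marker list behind the covariate, so their own values enter it. With other marker levels as covariates, added after seeing the data, Apln turned with the brown adipocyte (0.125), fibroblast (0.107), milk and luminal (0.026), myoepithelium (0.122) and neutrophil (0.026) levels, Nampt with the fibroblast (0.088), milk and luminal (0.024) and neutrophil (0.039) levels, and Rbp4 with the fibroblast (-0.207), macrophage (-0.013), milk and luminal (-0.115), myoepithelium (-0.389) and neutrophil (-0.015) levels. Without Wild-Type 2 and 5 together Apln was at 0.056, the Lep to Adipoq difference at -0.93 and 3 genes passed the threshold (1102 at an unadjusted p under 0.05). Rbp4 was also below 0 in limma-voom (-0.047) and in the deposited gene table (-0.062). C1qtnf1 turned with the transcript length offset (-0.37) and in the deposited table (-0.25). Nampt turned without Wild-Type 1 (0.092), and Rtp4, which ran from -0.066 to 0.215 without 1 library, without Knockout 1 (-0.066) or Wild-Type 3 (-0.05). The causes were not tested.

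The count of all genes past the threshold was 7 in edgeR (1576 at an unadjusted p under 0.05), 135 in DESeq2 and 2 with the adipocyte covariate. Without 1 library it ran from 0 to 28, with 0 without Knockout 3 (1478 at an unadjusted p under 0.05) or Knockout 6 (1319), 2 without Knockout 1 or Wild-Type 3, 13 without Wild-Type 1 or 5, 14 without Wild-Type 4 and 28 without Knockout 2. Without 1 library the Lep to Adipoq difference ran from -1.593 to -0.996. Replicate numbers appear in both groups, and no label says that they pair the samples. Correlations of same-numbered libraries lay between -0.22 and 0.19, and 1 of 5 was highest with its own number. So few correlations cannot settle whether the samples are paired. With a replicate block over replicates 1 to 5, 0 genes passed (1023 at an unadjusted p under 0.05), as in those libraries without the block, a fit added after seeing the data (0 genes); Rbp4 was then at -0.11, and the paired ratio difference was -1.457 (exact p = 0.0625, the smallest that 5 pairs allow). With the block Lep was at -0.91 ± 0.38 (SE; edgeR unadjusted p = 0.0453, adjusted p = 0.605). In the same libraries without the block it was at -0.78 ± 0.54 (SE; edgeR unadjusted p = 0.179, adjusted p = 0.626). Apln could not be tested without Knockout 4 or 5, where it failed the filter. Lep rests on 4 to 58 and Apln on 1 to 23 reads per library.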
